A study of Homo sapiens with 8 samples.

Results

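The genes followed here, on 8 arrays, are 10 secreted regulators of blood vessels: VEGFA, VEGFB, VEGFC, PGF, PDGFA, PDGFB, FGF2, ANGPT1, EDN1 and THBS1. They were chosen by name, and all 10 are among the 18239 genes that the array names. They are covered by 34 probe sets, each a group of short probes read as 1 value, and 26 of these, from 9 of the genes, carried enough signal to be tested. The RNA came from a pair of human breast cancer lines selected for growth in the brain, labelled 231BrM and SKBrM3, which carry a hairpin against the receptor tyrosine kinase MET that doxycycline switches on. Each line was grown in DMEM with serum either as a control without doxycycline or with doxycycline (100 ng in the labels, with no volume) for 48 h, and each of the 4 groups holds 2 arrays. The hairpin construct is present in controls and treated cells alike, and no group received doxycycline without it, so effects of the drug and of MET loss cannot be told apart. Values are log2 RMA signals, where 1 unit is a 2-fold difference.

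Vessel growth is driven by ligands that tumour cells release and endothelial cells or their support cells receive. VEGFA is the main growth and permeability signal for endothelium, acting through the receptor KDR, while PGF and VEGFB bind FLT1 and VEGFC acts on lymphatic endothelium through FLT4. The PDGF chains recruit pericytes and fibroblasts, FGF2 and ANGPT1 act on endothelial growth and vessel stability, EDN1 is the precursor of the vasoconstrictor endothelin-1, and THBS1 encodes thrombospondin-1, a matrix protein that restrains vessel growth through CD36 and CD47. In brain metastases these factors act on vessels of the blood-brain barrier. Cultured tumour cells hold no vessels, so the arrays show which signals the tumour cells could send.

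MET signal was lower with doxycycline in both lines, by 13.5-fold in 231BrM and 11.3-fold in SKBrM3 with the probe set used. When each was tested on its own, all 4 MET probe sets tested were called lower in each line. Their log2 changes ran from -3.76 to -1.08 in 231BrM and from -3.50 to -1.67 in SKBrM3. SK-BR-3, the line that the name SKBrM3 points to, is known for amplified ERBB2 (HER2), but ERBB2 did not pass the test between the lines. ERBB2 averaged 6.81 on the 231BrM control arrays and 6.71 on the SKBrM3 ones, a difference of 0.10 with a 95% interval from -0.11 to 0.32. The 4 ERBB2 probe sets tested gave differences from -0.11 to 0.14, and its amplicon neighbours GRB7 and STARD3 gave -0.06 and -0.07. A further pair of neighbours was called higher in SKBrM3, MIEN1 by 1.66-fold and PGAP3 by 1.24-fold (limma adjusted p = 0.000529 and 0.0368). Of 14 tested markers of HER2-amplified luminal lines, 6 were higher in 231BrM, KRT19 by 6.03-fold. A further 3 were higher in SKBrM3, FOXA1 by 2.58-fold, and 5 did not pass the test. Among the 6, ESRP2 read from 3.69 to 3.85 on the SKBrM3 arrays, under the filter level for testing. ESRP2 thus passed the filter through 231BrM alone, and its part of the count is no support. Vimentin and AXL, which mark basal and mesenchymal lines, averaged 12.75 and 11.33 on the SKBrM3 control arrays and 12.89 and 11.52 on the 231BrM ones. They differed by 0.14 and 0.19 between the control groups (limma adjusted p = 0.189 and 0.151). Of the 10 markers of such lines 3 were called higher in 231BrM and 0 lower. SKBrM3 below therefore means the arrays with that label. On 1 further array, 231BrM doxycycline replicate 1, actin probes near the 3' end of the transcript read 1.24 log2 units above those near its 5' end, against 0.46 to 0.59 on the other 7 arrays, a measure that rises as RNA shortens. Some results of the 10 genes that move with this array, but not all, are given with and without it.

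The clearest pattern among the 10 genes lay between the lines. Without doxycycline PGF was 4.58-fold, THBS1 3.88-fold, VEGFA 1.60-fold and EDN1 1.43-fold higher in 231BrM, and PDGFA was 1.24-fold higher in SKBrM3. VEGFB, VEGFC, PDGFB and ANGPT1 did not pass the test (limma adjusted p from 0.0682 to 0.782). Thus 5 of the 9 genes tested were called at an adjusted p under 0.05, against 39.7% of all genes tested. The share of 55.6% over so few genes is near that background, which shows how widely the lines differ. By direction, 4 were higher in 231BrM, as were 19.8% of all genes, and 1 was lower, as were 19.9%. At an unadjusted p under 0.05 there were 7 of 9, against 48.8% of all genes. The control arrays of the lines did not overlap for 8 of 9, all but VEGFB, against 76.8%.

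The start regions of PGF and THBS1, the pair with the largest differences between the lines, are shown because no array signal describes the DNA behind them. Each sequence is the 250 bases before a start of the gene in RefSeq (GRCh38.p14), on the gene's own strand. Capitals mark GC boxes (GGGCGG on either strand), the binding motif of Sp1-type factors. PGF has another start window in RefSeq, chr14:74955598-74955847, which also holds GC boxes and is not printed.
PGF, chr14:74955765-74956014, minus strand: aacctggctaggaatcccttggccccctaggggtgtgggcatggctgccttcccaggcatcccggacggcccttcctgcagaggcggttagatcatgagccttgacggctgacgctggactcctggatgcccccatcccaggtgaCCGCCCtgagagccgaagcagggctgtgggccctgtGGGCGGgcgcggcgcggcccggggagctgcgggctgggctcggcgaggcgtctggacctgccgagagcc
THBS1, chr15:39580829-39581078, plus strand: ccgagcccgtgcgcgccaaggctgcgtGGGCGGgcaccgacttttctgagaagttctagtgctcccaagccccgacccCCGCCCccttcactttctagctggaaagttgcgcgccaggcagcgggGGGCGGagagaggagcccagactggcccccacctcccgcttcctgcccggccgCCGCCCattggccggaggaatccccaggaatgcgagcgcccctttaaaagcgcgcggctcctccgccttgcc
A GC box is common: 42.64% of the 35116 windows of this length hold one. Also searched on both strands were the TATA box (TATAAA, in 10.72% of windows), the AP-1 site (TGANTCA, 6.57%), the HIF core (ACGTG, 18.51%), the CArG box (1.16%) and the NF-kB site (9.96%), and the 2 windows printed hold no match to these letters. RefSeq start windows were found for 7 of the 10 genes, 13 windows in all. Among these, EDN1 has a window with both a TATA box, from base -31 to -26, and an HIF core, from -123 to -119, and PDGFA has one with a CArG box. Another EDN1 window has HIF cores from -240 to -236 and from -93 to -89. The VEGFC window has an NF-kB site from -120 to -111. These matches are letters in a window and were not tied to any measured change.

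PGF, a VEGF family ligand that binds FLT1 and not KDR, had the largest difference between the lines among the members. Its single probe set read 7.84 and 7.42 on the 231BrM control arrays and 7.47 and 7.56 on the doxycycline ones. In SKBrM3 it read 5.49 and 5.38 without and 5.25 and 5.29 with doxycycline. All 4 arrays of 231BrM thus lay about 2 units above all 4 of SKBrM3, and within a line the groups lay close together. The difference without doxycycline was 2.19 log2 units (standard error 0.128, n = 2 per group, limma adjusted p = 6.08e-06). Between the doxycycline arrays, which that comparison did not use, it was 2.25.

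THBS1, the inhibitor of vessel growth among the members, was higher in the same line as the growth factors PGF and VEGFA. The probe set used read 11.34 and 11.28 in the 231BrM controls and 10.57 and 11.27 with doxycycline. In SKBrM3 it read 9.44 and 9.27 without and 9.55 and 9.62 with doxycycline. The lines did not overlap, and the lowest 231BrM value was that of doxycycline replicate 1, the array with the raised 3' signal. The difference without doxycycline was 1.96 log2 units (standard error 0.190, n = 2 per group, limma adjusted p = 9.22e-05). When each probe set was tested on its own, the 3 that lay above the filter level on all 8 arrays were called higher in 231BrM, with differences of 1.96, 1.96 and 2.19, a call that 33.4% of all probe sets tested reached in either direction. The other two, with 0.90 and 0.94, lay above that level on the 4 arrays of 231BrM alone and so entered the test only through the line where they are high. With doxycycline the difference was 1.34 (limma adjusted p = 0.000646).

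VEGFA was read by 10 probe sets, of which 9 were tested. The one used gave 9.88 and 9.76 in the 231BrM controls and 9.62 and 9.32 with doxycycline. In SKBrM3 it gave 9.08 and 9.21 without and 8.79 and 9.01 with doxycycline. The lines again did not overlap, and within each line both doxycycline arrays lay below both controls. The line difference without doxycycline was 0.67 log2 units (standard error 0.121, n = 2 per group, limma adjusted p = 0.00246). It depends on the probe set: when each was tested on its own, 4 of the 9 were called higher in 231BrM, 5 were not, and the 9 differences ran from -0.17 to 0.79. The probe sets share a gene and partly sequence, and which transcripts each reads was not analysed here.

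EDN1 differed less. The probe set used read 8.12 and 8.15 in the 231BrM controls and 8.58 and 8.06 with doxycycline. In SKBrM3 it read 7.70 and 7.54 without and 7.76 and 7.78 with doxycycline. The line difference without doxycycline was 0.51 (standard error 0.148, n = 2 per group, limma adjusted p = 0.0240), and both EDN1 probe sets were called, each with 0.51. PDGFA, which encodes the A chain of PDGF, was the one called member with the opposite direction. Its probe set used read 7.68 and 7.61 in the 231BrM controls and 7.96 and 7.95 in the SKBrM3 controls, a difference of -0.31 (standard error 0.089, n = 2 per group, limma adjusted p = 0.0241). The other PDGFA probe sets tested gave 0.14 and 0.10, and the mean over all PDGFA probe sets gave -0.07 (limma adjusted p = 0.795), so this call rests on 1 probe set.

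Of the 5 line differences, those of PGF, THBS1 and VEGFA passed in each of the 8 fits that leave out 1 array. EDN1 and PDGFA passed in 4 of the 8 and missed the threshold when any 1 of the 4 control arrays was left out (limma adjusted p from 0.0568 to 0.146 for EDN1 and from 0.0736 to 0.134 for PDGFA). Between the doxycycline arrays, a comparison added after the values were seen, 6 of 9 members were called against 41.6% of all genes, and the 5 called without doxycycline were among them. The sixth was ANGPT1, at 0.33, against 0.17 without doxycycline. The change of that difference with doxycycline did not pass (0.16, limma adjusted p = 0.631). Over all 8 arrays, 6 of the 9 members, ANGPT1 among them, had every 231BrM array on 1 side of every SKBrM3 array, as did 44.7% of all genes. ANGPT1 lay above the filter level on 1 SKBrM3 array and passed the filter only through 231BrM. Its part of both counts is thus no support.

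**Figure D1:**
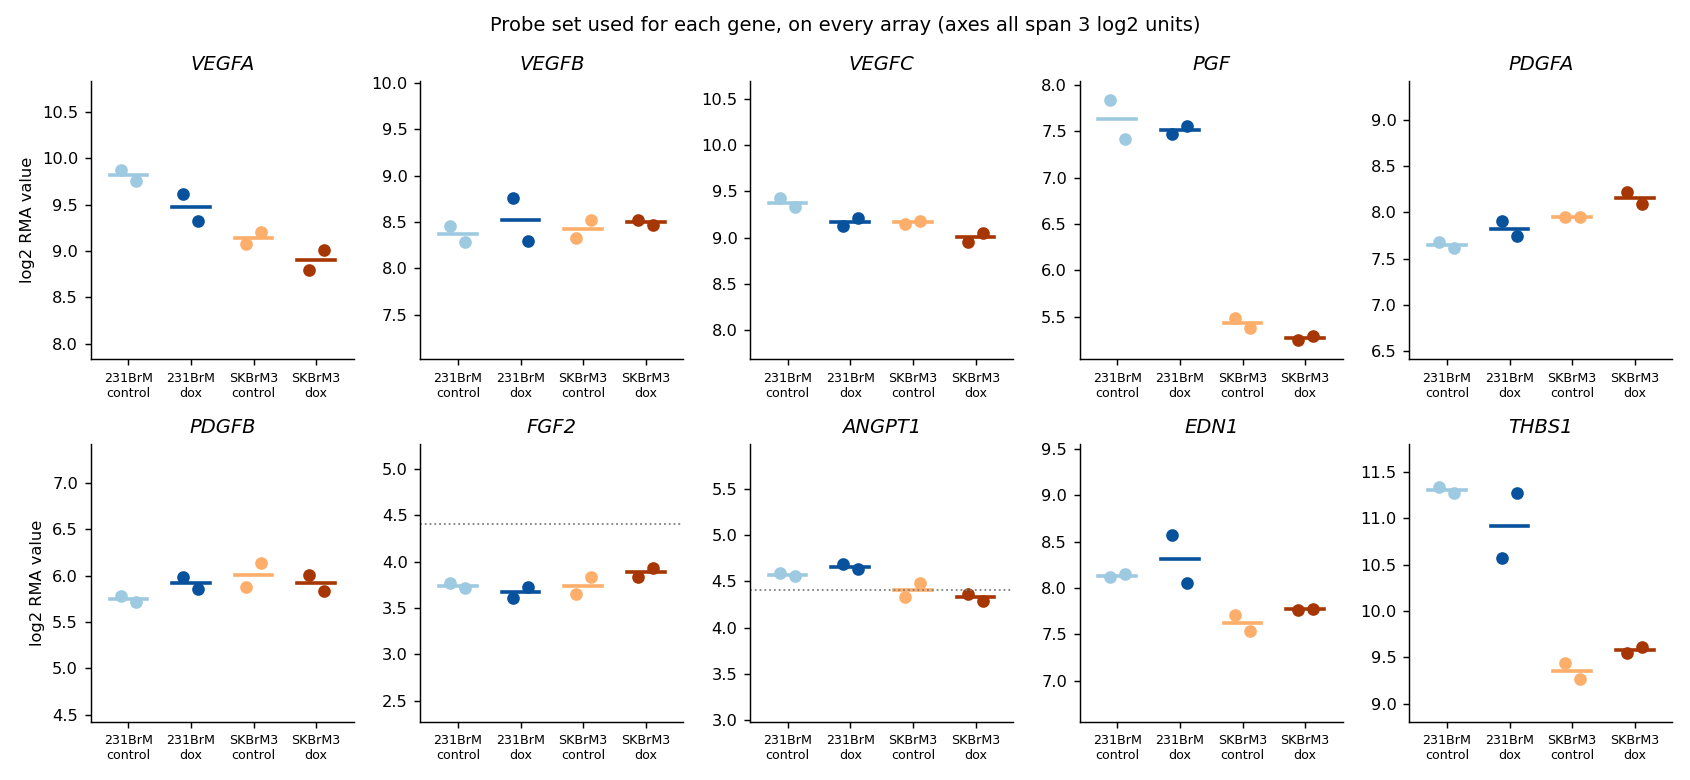
Log2 RMA value (vertical axes, all of the same span) of the probe set used for each of the 10 genes on every array; points are arrays, bars the mean of the 2 arrays of a group, and the dotted line the filter level of 4.41. PGF and THBS1 separate the lines by about 2 units, while FGF2 lies under the filter level on all 8 arrays.

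**Figure D2:**
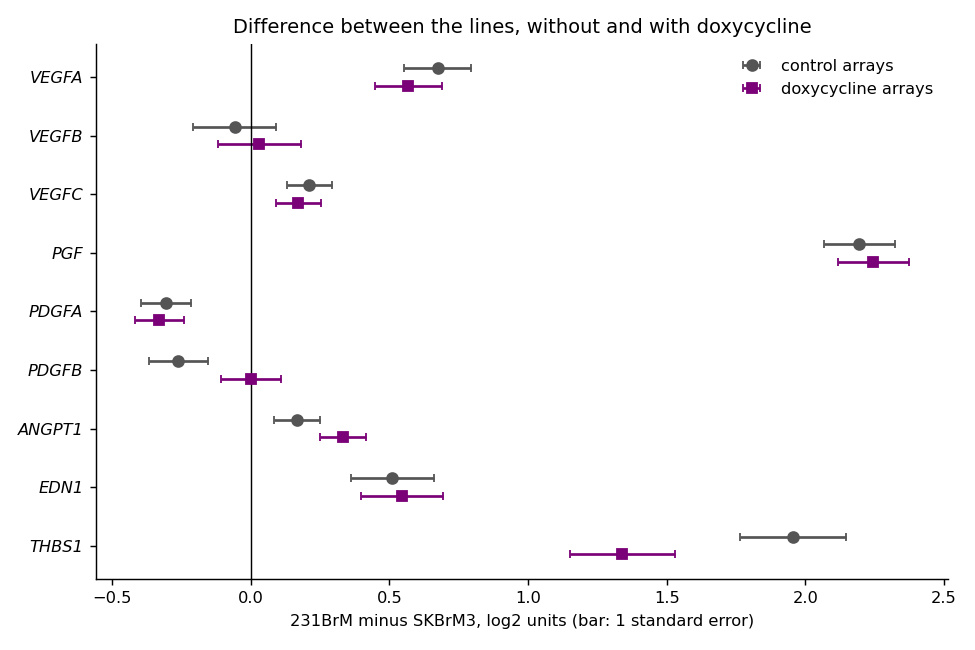
Difference between the lines (231BrM minus SKBrM3, log2 units) for the 9 genes tested, from the control arrays (circles) and from the doxycycline arrays (squares), with 1 standard error as bars and 2 arrays per group. PGF gives 2.19 and 2.25, and PDGFA lies below 0 in both, at -0.31 and -0.33.

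Among the remaining members, VEGFC, the lymphatic ligand, read 9.43 and 9.33 in the 231BrM controls and 9.15 and 9.18 in the SKBrM3 controls. The difference of 0.21 missed the threshold (limma adjusted p = 0.0682), although the groups did not overlap, and it passed with array weights (0.0298), with the 4 control arrays alone (0.0423), with all probe sets averaged per gene (0.041) and without either 231BrM doxycycline array (0.0367). PDGFB, which encodes the PDGF B chain, had -0.26 (limma adjusted p = 0.0845). It passed with array weights (0.0407), with the 4 control arrays alone (0.0448), with all probe sets averaged per gene (0.0344), with median centring (0.049) and without SKBrM3 control replicate 1 (0.0463). With array weights, and with the control arrays alone, 7 of 9 members were called. The shares of all genes in those fits are not given here, and in the main fit 39.7% were called. The count is thus no result about the members. The second tested PDGFB probe set gave -0.32 and was called when tested on its own (limma adjusted p = 0.025). VEGFB, a FLT1 ligand, read between 8.28 and 8.76 on all arrays, with overlapping lines and a difference of -0.06 (95% interval from -0.40 to 0.28).

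ANGPT1 and FGF2, a stabiliser of vessels and a heparin-binding growth factor, gave the weakest signals. The ANGPT1 probe set used read from 4.29 to 4.68 and exceeded the filter level of 4.41 on 5 of 8 arrays, so its values lie where the array distinguishes little. It lay above 4.41 on all 4 arrays of 231BrM and on 1 of SKBrM3, so its entry to the test leaned on 231BrM. The 3 FGF2 probe sets read from 3.10 to 3.93, under the filter level on every array, and FGF2 was not tested. Without detection calls, this shows low signal and not absence of the transcript.

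Doxycycline, and with it the loss of MET, produced no call among the members. In 231BrM 0 of 9 passed by limma (adjusted p from 0.437 to 0.758), against 0.162% of all genes. In SKBrM3 0 of 9 passed (adjusted p from 0.243 to 0.839), against 3.43% of all genes. At an unadjusted p under 0.05 there were 2 in 231BrM (VEGFA and VEGFC), where 9.89% of all genes reached it, and 1 in SKBrM3 (PDGFA), where 20.2% did. The median log2 change of the members was 0.09 in 231BrM and -0.08 in SKBrM3, against 0.05 and 0.01 over all genes. Standard errors of the members ran from 0.081 to 0.190, and the 95% intervals reach -0.82 log2 units for THBS1 and -0.62 for VEGFA in 231BrM. Both doxycycline arrays lay beyond both control arrays for 6 of 9 members in 231BrM, against 37.9% of all genes, and for 6 of 9 in SKBrM3, against 59.6%.

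Among the VEGF ligands, VEGFA had a log2 change of -0.35 in 231BrM (95% interval from -0.62 to -0.07) and of -0.24 in SKBrM3 (-0.51 to 0.04). All 9 VEGFA probe sets tested had negative changes in both lines, from -0.79 to -0.12 in 231BrM and from -0.43 to -0.03 in SKBrM3, and 0 of these were called. They read a single gene in the same RNA and are not separate evidence. Averaged over both lines the change was -0.29 (standard error 0.086, limma adjusted p = 0.117), with 0 of 9 members called against 3.04% of all genes and 3 at an unadjusted p under 0.05 (VEGFA, VEGFC and PDGFA), which 18.9% of all genes reached. For VEGFA that call turns on the setting: it passed when each array was centred on its median (-0.32, limma adjusted p = 0.042) and without 231BrM doxycycline replicate 1 (-0.37, limma adjusted p = 0.0257), and its adjusted p lay between 0.0605 and 0.352 in the other fits.

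VEGFC moved by similar amounts, -0.20 in 231BrM and -0.16 in SKBrM3, with doxycycline arrays at 9.13 and 9.22 and at 8.95 and 9.05, below the controls in each line. The average of -0.18 did not pass (limma adjusted p = 0.135), and it was -0.21 without 231BrM doxycycline replicate 2. PGF had -0.12 and -0.17, and VEGFB 0.16 and 0.07, and all 4 intervals span 0. For PDGFA the probe set used gave 0.18 in 231BrM and 0.20 in SKBrM3, with both doxycycline arrays above both controls in each line and an average of 0.19 (limma adjusted p = 0.151). Without 231BrM doxycycline replicate 2 the average of PDGFA was 0.23, and those of VEGFB, EDN1 and THBS1 were 0.23, 0.29 and -0.26. That fit leaves the array with the raised 3' signal alone in its group, so no call is read from it. The other PDGFA probe sets tested did not share the upward direction, with -0.75 and -0.47 in 231BrM and about 0.00 and -0.19 in SKBrM3. In 231BrM they read 5.50 and 3.70 on doxycycline replicate 1, the array with the raised 3' signal. On replicate 2 the first read 7.55, above its controls at 7.19 and 7.36. The second read 4.56 there, between its controls at 4.47 and 4.72. Their negative values in 231BrM thus rest on replicate 1. PDGFB had 0.17 and -0.09, and ANGPT1 0.09 and -0.08.

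**Figure D3:**
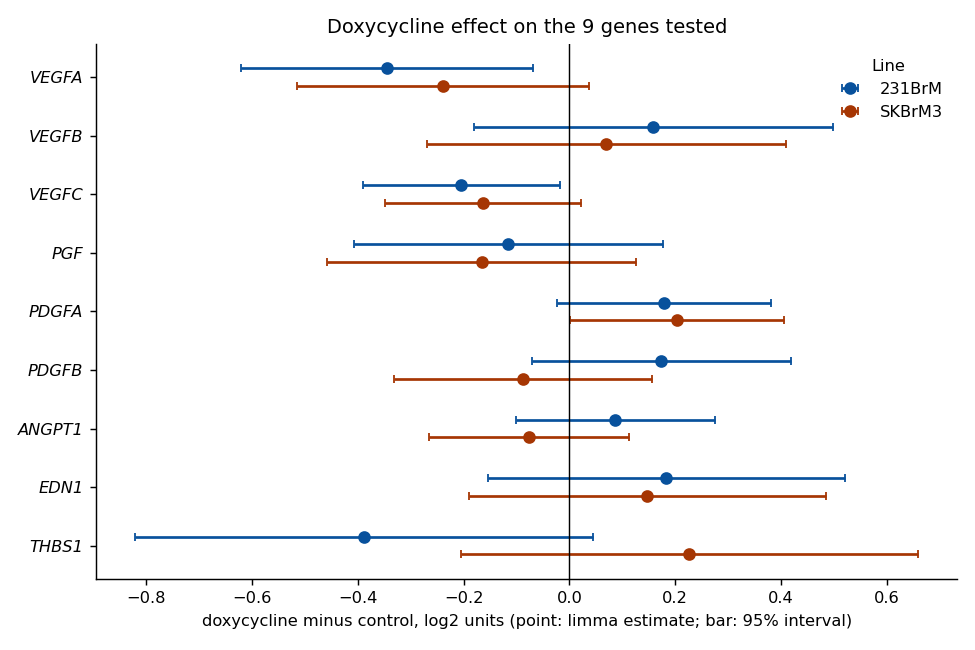
Doxycycline minus control (horizontal axis, log2 units) for the 9 genes tested in each line; points are limma estimates from 2 arrays per group and bars 95% intervals. VEGFA and VEGFC lie left of 0 in both lines and PDGFA right of it, and THBS1 lies on opposite sides, at -0.39 and 0.23; none passed after adjustment over all genes.

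EDN1, THBS1, VEGFB and PGF in 231BrM turned on single arrays. With 1 array left out, VEGFB ran from -0.08, without doxycycline replicate 1, to 0.39, and PGF from -0.33 to 0.09. EDN1 had a log2 change of 0.18 in 231BrM and 0.15 in SKBrM3. Without doxycycline replicate 1, the array with the raised 3' signal, the 231BrM value was -0.07, and without replicate 2 it was 0.44 (limma adjusted p = 0.0212), which leaves 1 array in that group. The second EDN1 probe set gave -0.28 in 231BrM. THBS1 had -0.39 in 231BrM, -0.04 without replicate 1 and -0.74 without replicate 2 (limma adjusted p = 0.00413), and 0.23 in SKBrM3.

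The distance between the 231BrM doxycycline arrays was large in several members. A second PDGFA probe set read 5.50 on replicate 1 and 7.55 on replicate 2, while the other 6 arrays read from 7.09 to 7.36. The PDGFA probe set used read 7.91 and 7.74 on the same 2 arrays. In THBS1, 4 of 5 probe sets were lower on replicate 1 by 0.63 to 1.14, and the fifth was higher by 0.17. Of the 26 tested probe sets of the members, 7 were lower on replicate 1 by over 0.5 log2 units and 2 were higher by as much, against 7.72% and 3.54% of all 28860 probe sets tested. In the other groups the largest distance between replicates among these 26 was 0.65. The part of RNA quality in these values was not tested.

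**Figure D4:**
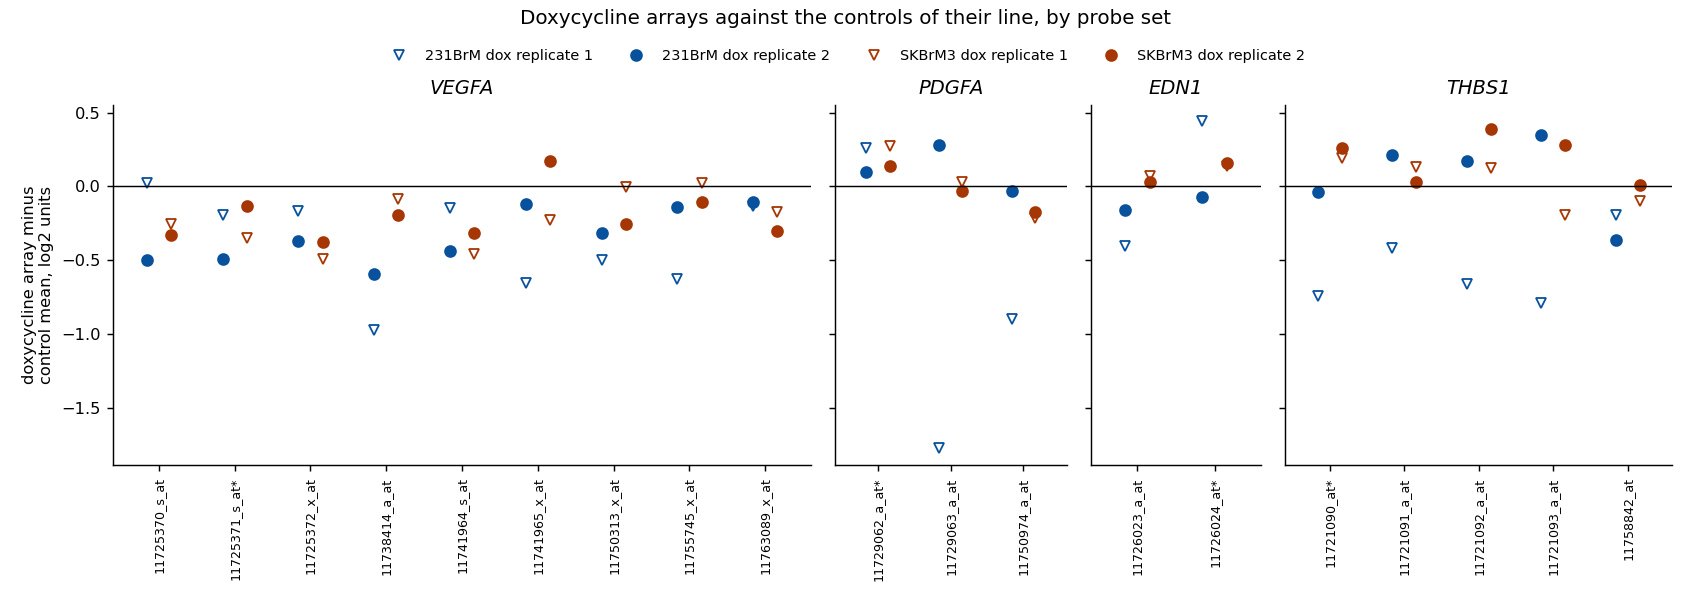
Each doxycycline array minus the mean of the control arrays of its line (vertical axis, log2 units) for every tested probe set of VEGFA, PDGFA, EDN1 and THBS1; triangles are replicate 1, filled circles replicate 2, and an asterisk marks the probe set used for the gene. Replicate 1 of 231BrM lies far below replicate 2 for 1 PDGFA probe set, at 5.50 against 7.55 before the control mean is taken off, and below it for 4 of 5 THBS1 probe sets.

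The doxycycline effects of the lines, which have no arrays in common, differed for 0 of 9 members by limma (adjusted p from 0.446 to 0.965), against 0.0231% of all genes. THBS1 alone had an unadjusted p under 0.05, a level that 11.2% of all genes reached. Its difference of -0.62 (231BrM minus SKBrM3) had a limma adjusted p of 0.446 and was -0.26 without 231BrM doxycycline replicate 1. For VEGFA the difference was -0.11, with a 95% interval from -0.50 to 0.28.

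Other genes of these pathways are given by list, each count to be read against the shares of all genes: 19.8% called higher and 19.9% lower in 231BrM between the lines, and 9.89% in 231BrM and 20.2% in SKBrM3 at an unadjusted p under 0.05 with doxycycline. Among receptors, FLT1, which receives PGF, VEGFA and VEGFB, averaged 4.04 to 4.11 in the 4 groups, under the filter level, and CD36 3.23 to 3.39. Of 17 listed receptors 16 are on the array and 11 were tested. Between the lines 4 were called higher in 231BrM, 1 lower and 6 did not pass, with a median difference of 0.08 against -0.05 over all genes. KDR, the main VEGFA receptor, was 1.86-fold higher in 231BrM, FGFR1 2.14-fold and the semaphorin and VEGF co-receptor NRP1 1.56-fold. CD47, which binds thrombospondin-1, was 1.44-fold higher. For NRP1 and CD47 the probe sets disagree, running from -0.25 to 0.64 and from -0.06 to 0.52. With doxycycline KDR rose by 1.31-fold in SKBrM3 (limma adjusted p = 0.0293), from a control mean of 4.33 that lies under the filter level, and was not called when every probe set was tested. No other listed receptor was called with doxycycline in either line by limma, and at an unadjusted p under 0.05 there were 0 in 231BrM and 1 in SKBrM3, KDR itself.

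Of 10 other inhibitors of vessel growth 6 were tested, and 4 were higher in 231BrM, 0 lower and 2 did not pass, COL18A1 with 0.10 and VASH1 with -0.04. THBS2, the close relative of THBS1, was 12.4-fold higher, SPARC, a matrix protein, 6.66-fold, ADAMTS1, a protease that binds VEGFA, 4.80-fold, and TIMP3, a metalloproteinase inhibitor, 2.25-fold. The SKBrM3 control means of THBS2 and SPARC, 4.16 and 4.21, lie under the filter level, so these folds are limited by low signal, and the pair passed the filter through 231BrM alone, so their part of the count is no support. With doxycycline ADAMTS1 fell by 0.82 log2 units in SKBrM3 (limma adjusted p = 0.00171), while in 231BrM, where its mean was 9.32 without and 9.02 with doxycycline, it was not called. It also fell in the average over both lines, by 0.56 (limma adjusted p = 0.00164). By limma 0 of the 6 were called in 231BrM, with 3 at an unadjusted p under 0.05.

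Of 21 further vascular ligands 13 were tested, and between the lines 4 were higher in 231BrM, 4 lower and 5 did not pass. ADM, the vasodilator adrenomedullin, was 4.34-fold higher in 231BrM, EFNB2, an ephrin of arterial vessels, 1.75-fold and CCN1, a matrix ligand of integrins, 1.40-fold, while the Notch ligand JAG1 was 1.83-fold higher in SKBrM3. The 4 EFNB2 probe sets tested ran from 0.21 to 0.81, and 2 were called when each was tested on its own. With doxycycline 0 of the 13 were called in either line by limma, with 3 in 231BrM and 4 in SKBrM3 at an unadjusted p under 0.05.

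Genes that process or release the ligands gave 4 of 9 tested higher in 231BrM, 0 lower and 5 that did not pass. HPSE, heparanase, which frees heparin-bound growth factors, was 5.22-fold higher, from a SKBrM3 control mean of 4.21 under the filter level. Every SKBrM3 array read under that level for HPSE, from 4.17 to 4.32. HPSE thus passed the filter through 231BrM alone, and its part of the count is no support. The plasminogen activators PLAT and PLAU were 2.67-fold and 1.94-fold higher, and CCBE1, a cofactor of VEGFC activation, 1.28-fold. With doxycycline MMP9, a gelatinase, fell by 0.68 and PLAT rose by 0.42 in SKBrM3 (limma adjusted p = 0.0086 and 0.0232), and 0 of 9 were called in 231BrM, with 4 at an unadjusted p under 0.05. MMP9 also fell in the average over both lines, by 0.60 (limma adjusted p = 0.0026), with -0.53 in 231BrM.

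Upstream of VEGFA, 13 of 14 oxygen-sensing and transcription factor genes were tested, and 4 were higher in 231BrM, 4 lower and 5 did not pass. EPAS1, which encodes HIF-2 alpha, was 5.01-fold higher in 231BrM by the probe set used, while its other tested probe set gave -0.01. CITED2, a feedback inhibitor of HIF, was 2.67-fold higher, and KLF2 and HIF1AN, an endothelial transcription factor and an oxygen-dependent HIF hydroxylase, were 1.61-fold and 1.38-fold higher in SKBrM3. The 3 HIF1AN probe sets tested ran from -0.47 to -0.14, and 1 was called when each was tested on its own. HIF1A did not differ beyond its error, with 0.12 (limma adjusted p = 0.262). With doxycycline VHL, which marks HIF for degradation, fell by 0.75 in SKBrM3 (limma adjusted p = 0.0411) and by 0.71 in the average over both lines (limma adjusted p = 0.0142), with -0.66 in 231BrM. In 231BrM VHL read 8.29 and 8.46 in the controls. With doxycycline it read 7.43 on replicate 1, the array with the raised 3' signal, and 7.98 on replicate 2. When all probe sets were tested separately, 1 of its 2 was called in the average and neither in SKBrM3, and 0 of the 13 genes were called in 231BrM, with 1 at an unadjusted p under 0.05.

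Markers of other cell types were examined because such cells would also supply these factors. Of 10 endothelial markers, 4 or 5 averaged at or under the filter level in each group, CDH5 (VE-cadherin) among them at 3.70 to 3.85, and the summed log2 level of the 10 ran from 51.88 to 51.99 in the SKBrM3 controls and from 54.26 to 54.94 in the 231BrM controls. KDR, ESAM and ROBO4 were called higher in 231BrM, ESAM by 3.68-fold, and 0 of the 6 tested were called lower. The other markers tested, TIE1, PECAM1 and VWF, gave -0.12, -0.10 and -0.03 and were not called. The endothelial sum lay higher in the line with more PGF, THBS1, VEGFA and EDN1, and its part in those differences was not tested. Of 8 fibroblast and pericyte markers 4 or 5 lay at or under that level, and the summed level ran from 32.30 to 33.85 over all arrays. COL1A1 was 1.39-fold higher in 231BrM, and ACTA2, smooth muscle actin, fell by 0.73 with doxycycline in SKBrM3 to a mean of 3.84, and by 0.41 in the average over both lines (limma adjusted p = 0.00546 and 0.0138). Of 5 leukocyte and astrocyte markers 2 lay at or under the level in every group, with sums from 25.08 to 25.75 and no call by limma in any comparison, nor any unadjusted p under 0.05. In a bulk culture, fewer cells that express a gene and less RNA per cell cannot be told apart.

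For each called member the 2 genes with the most similar pattern over the 8 arrays were sought among all genes tested. The arrays fall into lines and groups, so these correlations describe mainly the difference between the lines. PGF ran with TNS3 (Pearson r = 0.998 over 8 arrays) and LMO4 (0.997), and THBS1 with FAR1 (0.996) and UBE2R2 (0.995). VEGFA ran with DIPK1A (0.993) and KCTD9 (0.989), EDN1 with PELO (0.993) and TFPT (0.989), and PDGFA with EIF4EBP1 (0.990) and SFN (0.989).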

How the data were processed

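Total RNA of 8 samples was labelled with biotin and hybridised to single-colour Affymetrix arrays, per the labels. The deposited values are log2 signals per probe set that the authors made with RMA, a method that subtracts background, forces all arrays to 1 distribution and summarises probes, per the submitters' processing notes. The sources used here give neither its version nor the chip definition. A change of total RNA is therefore hidden, and no detection calls were analysed here. Of 49386 probe sets 45253 name 1 gene. Symbols were updated by gene ID through RefSeq (GRCh38.p14), and sequences are RefSeq's. Each of 18239 genes was represented by its probe set with the highest mean, and 13002 genes above 4.41 (the level that 40% of values lie under) on 2 or more arrays were tested.

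The 4 group means were fitted over all 8 arrays with limma 3.58.1 (lmFit, eBayes; R 4.3.3), two-sided, with Benjamini-Hochberg adjustment over all genes tested and calls at an adjusted p under 0.05. The same fit was run on all 28860 probe sets above the filter. The steps were tested on simulated data. With 2 arrays a group the number of arrays limits the precision (median standard error of a doxycycline effect 0.0968), and since no label says that replicates come from separate cultures, the spread behind each p-value may be technical. The members and gene lists were chosen with earlier results of these data known. Named are the 10 members in every comparison, MET, up to 4 members of each other list per comparison with the smallest p among those called, and for each called member the 2 genes with the most similar pattern. FLT1, CD36, HIF1A, CDH5, ERBB2, GRB7, STARD3, MIEN1, PGAP3, vimentin, AXL, COL18A1 and VASH1 were added for their roles after their values were seen. TIE1, PECAM1, VWF and ESRP2 were also added after their values were seen. Alternatives were other probe set summaries, filters, array weights, fewer arrays, a replicate block, median centring and leaving out each array.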

Additional observations from a re-analysis of the deposited data

Results flagged for a closer look

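THBS1 was singled out because its doxycycline arrays lay below both controls in 231BrM and above both in SKBrM3. The difference of the effects was -0.62 log2 units (limma adjusted p = 0.446 over all genes), so it did not pass. Without 231BrM doxycycline replicate 1, on which 4 of the 5 THBS1 probe sets read low, it was -0.26.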

How the results depend on the processing

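With 2 arrays per group, fits that leave out 1 take the spread of the lone array from the other groups. Leaving out single arrays gave 3 to 1650 genes called for doxycycline in 231BrM, 52 to 1631 in SKBrM3, 98 to 2887 for the average, 0 to 473 for the difference of the effects and 3323 to 6575 between the lines, the highest without 231BrM doxycycline replicate 2 (in SKBrM3 and between the lines, without either 231BrM doxycycline array). Of the members, 0 to 2, 0, 0 to 5, 0 to 1 and 3 to 6 were called in the same order. Testing every probe set separately gave 13 genes in 231BrM, 294 in SKBrM3 and 0 for the difference. Array weights gave 11 and 1605, and the arrays compared alone 1 and 1248, in 231BrM and SKBrM3. Median centring gave 49 genes in 231BrM, 593 for the average, 5 for the difference and 1 member for the average, VEGFA.

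Averaging all probe sets turned the sign of uncalled doxycycline values: PDGFA to -0.27 in 231BrM, -0.027 in SKBrM3 and -0.15 on average, EDN1 to -0.050 in 231BrM and -0.15 for the difference, and PDGFB to 0.075 in SKBrM3. Centring turned the average of ANGPT1 to -0.026. The doxycycline arrays, added after the values were seen, gave line differences of 0.031 for VEGFB and 0.0003 for PDGFB. Leaving out 1 array turned further uncalled values, over these ranges. In 231BrM they were -0.074 to 0.44 for EDN1, -0.33 to 0.094 for PGF and -0.078 to 0.39 for VEGFB. In SKBrM3 they were -0.21 to 0.039 for PDGFB and -0.029 to 0.17 for VEGFB. For the average they were -0.033 to 0.043 for ANGPT1, -0.020 to 0.11 for PDGFB, -0.26 to 0.095 for THBS1 and -0.0043 to 0.23 for VEGFB. For the difference they were -0.22 to 0.29 for EDN1, -0.105 to 0.057 for PDGFA, -0.16 to 0.26 for PGF, -0.25 to 0.042 for VEGFA, -0.15 to 0.33 for VEGFB and -0.091 to 0.010 for VEGFC. Between the lines VEGFB ran from -0.16 to 0.040. The cause of these turns was not tested.

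With the replicate block 16 genes were called in 231BrM, 389 in SKBrM3, 320 for the average, 3 for the difference and 5113 between the lines, with 0, 0, 0, 0 and 5 members. Arrays of the same number deviated together with correlations from -0.11 to 0.24 over the 6 pairs of groups, so the numbers were not taken as a pairing.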
